A study of Mus musculus with 9 samples.

Results

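Skeletal stem cells of old and young mice were compared 10 days into the repair of a broken femur. The comparison sets 3 RNA libraries of 24 month old C57BL/6J mice against 3 libraries of 2 month old C57BL/6J mice, over the genes that reached at least 1 TPM in 3 or more of all 9 libraries of the series. TPM (transcripts per 1000000) gives a gene's share of all transcripts after correction for their length. The rule kept 14501 of the 53607 rows of the deposited table. Just inside it lay 741 genes with 1 TPM in exactly 3 libraries, just outside it 999 with 1 TPM in exactly 2, and 10703 genes reached that level in all 9. The remaining 3 libraries came from 12 month old mice of the same strain. They entered the model that sets the error and are described only where a level at 12 months is given. All animals carried the fracture, the labels name no treatment, and no uninjured cells stand beside them here. Between 500 and 1000 cells were sorted per sample from the day-10 callus by the mouse skeletal stem cell (mSSC) gate. It keeps cells with ITGAV on their surface and drops those with the blood and endothelial markers CD45, TER119 and TIE2, or with THY1, CD105 or 6C3. The labels do not say whether the samples of an age came from separate animals or from pooled ones, so every p below measures the spread between samples, which may in part be technical.

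A callus is the temporary tissue that bridges a fracture. Skeletal stem cells from the periosteum and marrow divide in it, lay down cartilage, and are followed by bone. In doing so they depend on a contractile actin cytoskeleton that senses the stiffness of the matrix, on carriers that bring in amino acids and sugars for matrix synthesis, and on mitochondria whose own ribosomes make the core of the respiratory chain.

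The sorted cells were checked against the genes of the gate. Itgav had 25.2, 48.2 and 39.7 TPM at 24 months and 41.7, 50.1 and 48.6 TPM at 2 months, whereas Ptprc, which encodes CD45, was listed at 0 in 5 of these 6 libraries and at 0.0054 TPM in library 3 of 24 months. Transcripts of other proteins that the gate drops were present at low levels. Thy1 had 1.54, 4.27 and 2.54 TPM at 24 months and 1.54, 1.11 and 1.24 TPM at 2 months, Eng, which encodes CD105, had 1.75, 4.08 and 1.56 TPM at 24 months and 1.29, 1.09 and 1.01 TPM at 2 months, each library of 24 months above each of 2 months, and Enpep, which encodes 6C3, had 1.63, 0.621 and 0.156 TPM at 24 months and 0.071, 1.41 and 0.616 TPM at 2 months. Tek, which encodes TIE2, stayed under 1 TPM. Col2a1, the collagen of cartilage, stood at 15166, 13906 and 27506 TPM at 24 months and 39537, 37393 and 41553 TPM at 2 months, and Sox9, the transcription factor of the cartilage lineage, at 259, 214 and 386 TPM at 24 months and 375, 513 and 461 TPM at 2 months. Library 1 of 24 months stood apart from the other libraries of the series: its mean correlation with them across genes was 0.932, against 0.953 to 0.962 for the other 8, and it listed 33313 rows at 0, against 29284 to 31082. The libraries held 13387 to 13813 genes at 1 TPM or more, and their depth is unknown because TPM keeps none.

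Markers of other cells differed in level between the ages as well. In bulk RNA, fewer cells of a type and less RNA per cell cannot be told apart. The summed level of 15 smooth muscle and pericyte markers ranged from 805 to 1733 TPM at 24 months and from 236 to 438 TPM at 2 months, with Myocd under 1 TPM throughout. The sum of 13 endothelial markers was 26.4 to 54.4 TPM at 24 months and 11.8 to 25.7 TPM at 2 months, with Cdh5, Kdr, Tek and Robo4 under 1 TPM. Erythroid markers summed to 966 TPM in library 1 of 24 months and to 74.1 and 243 TPM in the other two, against 151 to 339 TPM at 2 months. For neutrophil markers the sums were 261, 135 and 23.9 TPM at 24 months and 24.3, 45.4 and 56.3 TPM at 2 months, with Ly6g, Csf3r, Cxcr2 and Mmp8 under 1 TPM. Skeletal muscle markers summed to 81.8 to 124 TPM at 24 months and to 59.3 to 72.9 TPM at 2 months, with Myod1, Myf5 and Pax7 listed at 0. Tendon markers summed to 8862 to 10455 TPM at 24 months and to 12202 to 14794 TPM at 2 months. That sum consists mostly of Comp and Fmod, which with Egr1 had all libraries of 24 months below those of 2 months. The tendon regulator Scx, at 272, 192 and 105 TPM at 24 months and 65.5, 85.7 and 97.8 TPM at 2 months, Tnmd, at 165, 75.1 and 52.5 TPM at 24 months and 38.4, 30.0 and 48.3 TPM at 2 months, and Tnc had all libraries of 24 months above. Schwann cell markers summed to 259.8 to 325 TPM at 24 months and 349 to 430.1 TPM at 2 months. Macrophage markers summed to 103 to 135 TPM at 24 months and to 83.6 to 117 TPM at 2 months, and osteoclast markers to 285 to 454 TPM at 24 months and 277 to 296 TPM at 2 months. Markers of B cells, mast cells and platelets stayed under 9 TPM in sum.

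Limma, fitted to all 9 libraries, called 23 of the 14501 genes between 24 and 2 months at an adjusted p under 0.05 (0.159% of the genes tested). Of these, 13 were higher at 24 months (0.0896%) and 10 lower (0.069%). The unadjusted p was under 0.05 for 2103 genes, 7.9% of all genes being higher and 6.6% lower. Of the called genes, 19 carry a gene name, 11 higher and 8 lower, and the libraries of the ages did not overlap for any of them. The other 4, a pair of pseudogenes and a pair of small RNAs, were each listed at 0 in every library of an age. Because so few genes passed, families are described below by how many members had all 3 libraries of 24 months above, or all below, all 3 of 2 months. Over all genes tested that held for 11.2% above and 8.97% below, and the median log2 difference of all genes was -0.02. Differences are 24 minus 2 months on the log2(TPM + 1) scale, with limma's standard error (SE). Adjusted p-values are limma's with Benjamini-Hochberg correction over all genes. Levels of genes with near-identical copies or processed pseudogenes, among them the actins, thymosins, tubulins, Fabp5 and many ribosomal proteins, are uncertain, as are those of genes that overlap another on the opposite strand.

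**Figure D1:**
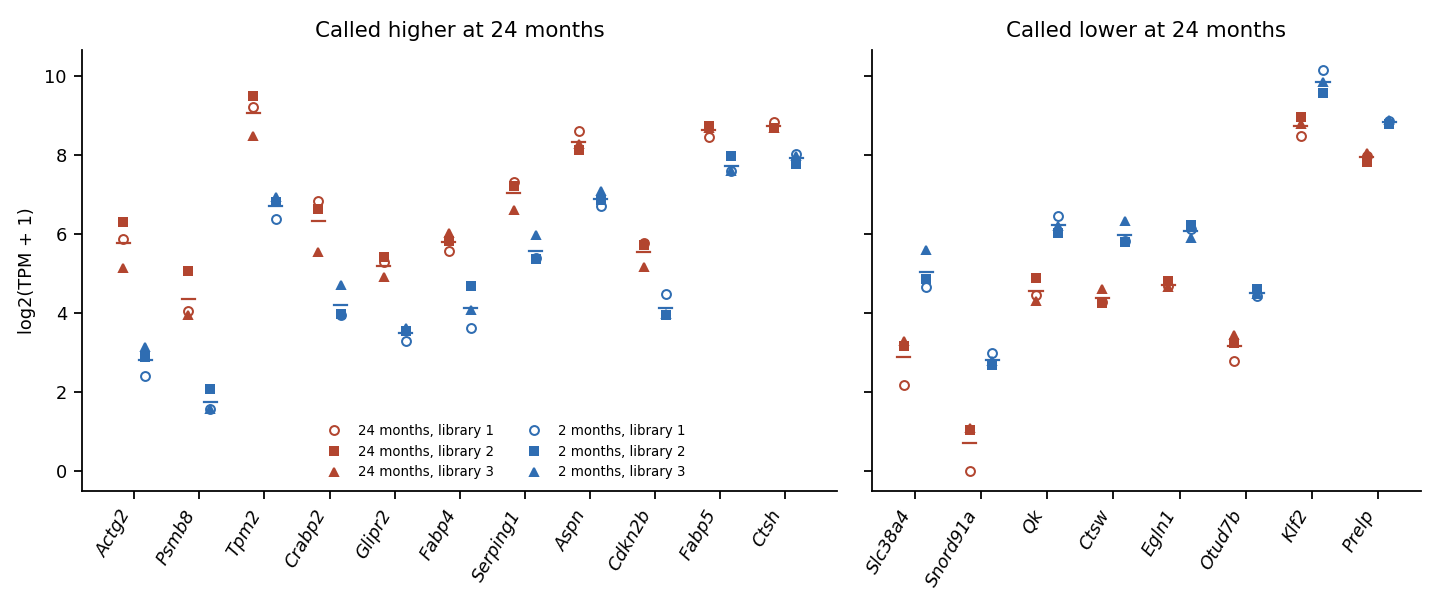
Level of the 19 named genes called between 24 and 2 months, as log2(TPM + 1) per library, with 24 months in red to the left of 2 months in blue and a bar at each mean of 3 libraries. The 11 genes in the left panel lay higher at 24 months in every library and the 8 in the right panel lower, and Actg2 shows the widest gap, with 34.2 TPM or more at 24 months and at most 7.85 TPM at 2 months.

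Actg2, the smooth muscle gamma actin (chr6:83512905-83536265, minus strand), had 57.7, 77.3 and 34.2 TPM in the libraries of 24 months, against 4.31, 6.38 and 7.85 TPM in those of 2 months. Tpm2, a tropomyosin that winds along actin filaments and gates the access of myosin (chr4:43514711-43523765, minus strand), had 589, 721 and 354 TPM in the libraries of 24 months, against 82.7, 111 and 121 TPM in those of 2 months. Both rose in all 3 libraries of 24 months, by 2.96 ± 0.45 and 2.35 ± 0.37 on the log2 scale (adjusted p = 0.0355 each), and in both the lowest value at 24 months was in library 3. The same library was lowest for the summed smooth muscle markers, with 805 TPM against 1258 and 1733 in the other libraries of 24 months. The part of those markers in the results on actin was not tested.

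The mouse has 4 tropomyosin genes, and all 4 had their libraries of 24 months above those of 2 months. Tpm1, expressed in muscle and non-muscle cells, had 489, 665 and 509.5 TPM at 24 months and 238, 276 and 272 TPM at 2 months and did not pass (difference 1.07 ± 0.21, adjusted p = 0.0938). Tpm3 and Tpm4, the cytoskeletal members, named here after their values were seen, differed by 0.29 ± 0.14 and 0.41 ± 0.15. The order of the differences was thus Tpm2, Tpm1, Tpm4 and Tpm3, and only Tpm2 passed the test. Over 49 members tested of a list of tropomyosins, non-muscle myosins and actin crosslinkers, 16 did not overlap upward (32.7%) and 4 downward (8.16%), with a median difference of 0.24 that was 0.05 without library 1 of 2 months. Among them, filamin A (Flna), which crosslinks filaments into networks, had 70.5, 75.4 and 52.6 TPM at 24 months and 28.8, 23.5 and 34.4 TPM at 2 months, and the LIM proteins Csrp2 and Pdlim2 differed by 1.15 ± 0.25 and 1.38 ± 0.29. The myosin light chain Myl6, the most abundant member, stood at 2335, 2354 and 1619 TPM at 24 months and 1256, 1259 and 1263 TPM at 2 months. None of these 4 passed, at adjusted p of 0.116 to 0.191.

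Of 44 actin assembly genes tested, 12 lay wholly above (27.3%) and 1 wholly below (2.27%), with a median difference of 0.21, or 0.05 without library 2 of 24 months. None was called. Tmsb4x, the thymosin that holds actin monomers in reserve, had 2057, 2395 and 1373 TPM in the libraries of 24 months, against 763, 931 and 839.5 TPM in those of 2 months. Tmsb10, its relative, had 1168, 992 and 554 TPM at 24 months and 443, 474 and 294 TPM at 2 months, and profilin (Pfn1), which feeds monomers to growing ends, had 1876, 1495 and 1123 TPM at 24 months and 819, 857 and 779 TPM at 2 months. All 3 libraries of 24 months exceeded all of 2 months for each of these, by 1.17 ± 0.29, 1.12 ± 0.30 and 0.84 ± 0.23. Cofilin (Cfl1), which severs filaments, differed by 0.68 ± 0.19, and Arpc3, a subunit of the branching complex Arp2/3, by 0.63 ± 0.15. The cytoplasmic actins parted: Actb had 4044, 4196 and 3196 TPM at 24 months and 2296, 2644 and 2613 TPM at 2 months without overlap (adjusted p = 0.232), whereas Actg1 had 1318, 1688 and 1565 TPM at 24 months and 1327, 1614 and 1712 TPM at 2 months and overlapped, with a difference of -0.02 ± 0.16. The adjusted p of the 5 genes of filament turnover was between 0.14 and 0.168, and whether Actb and Actg1 differ in response was not tested.

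Serum response factor (SRF) and its actin-sensing cofactors drive many of these genes, and their known targets were taken as a list. Of 30 members tested, 12 lay wholly above at 24 months (40.0%) and 1 wholly below (3.33%), with a median difference of 0.31, which ranged from 0.22 to 0.38 when each library was left out in turn. Tpm2, which is also in the tropomyosin list, was the member called. The SRF list shares members with the tropomyosin and actin assembly lists, so their counts are not separate results. Tagln2, a calponin-like actin binder, had 278, 318 and 166 TPM at 24 months and 86.5, 118 and 82.0 TPM at 2 months (difference 1.37 ± 0.26, adjusted p = 0.0938), and Cnn2, a calponin, had 154, 138 and 87.9 TPM at 24 months and 38.0, 53.0 and 38.7 TPM at 2 months (difference 1.50 ± 0.33, adjusted p = 0.124). The 1 member wholly below was Srf itself, named after its values were seen, with 9.72, 16.9 and 13.1 TPM at 24 months and 25.2, 18.9 and 25.5 TPM at 2 months (difference -0.79 ± 0.27, adjusted p = 0.246). Among smooth muscle markers that are also SRF targets, Myl9 had 381, 549.8 and 229 TPM at 24 months and 40.1, 97.6 and 96.1 TPM at 2 months, and Tagln and Cnn1 differed by 2.50 ± 0.70 and 1.86 ± 0.54. The smooth muscle list itself had 8 of its 11 tested members wholly above and 1 called, Actg2.

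**Figure D2:**
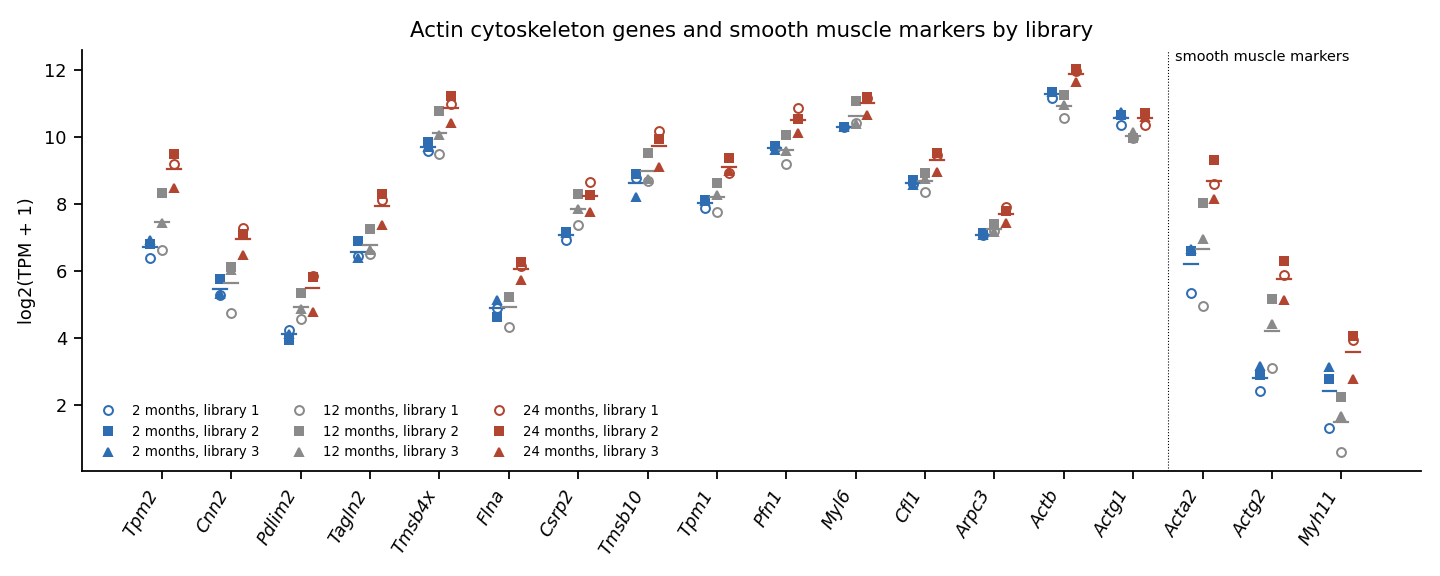
Level of 15 actin cytoskeleton genes and, right of the dotted line, 3 smooth muscle markers in every library, as log2(TPM + 1), with the ages in the order 2, 12 and 24 months and a bar at each mean of 3 libraries. The genes shown were chosen after their values were seen. Tpm2 stands at 354 to 721 TPM at 24 months, above the libraries of 2 months (82.7 to 121 TPM), library 3 of 24 months is the lowest of its age for Tpm2, Acta2 and Actg2, and Actg1 overlaps between 24 and 2 months.

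SRF binds a 10-base element known as the CArG box, and the promoters were read for it to show where the letters lie. The search took CC, then 6 bases of A or T, then GG, in the 250 bases before each annotated start, from RefSeq windows on GRCm38.p6. The pattern is its own reverse complement in form, so each hit was counted once for both strands, and no other motif was searched. It was present in 482 of 32851 windows (1.47%) and in 156 of 12776 windows of the genes tested (1.22%). Of 34 windows of the SRF list, 9 held it (26.5%), as did 7 of 57 of the tropomyosin and myosin list (12.3%) and 2 of 46 of the actin assembly list (4.35%). The SRF list was made from known targets, so its share is a description. These lists share members, so their shares are not separate results. Fhl2, Vcl and Lima1 carry the box in the SRF and tropomyosin lists, and Actg1 in the SRF and actin assembly lists. Of 12 windows found for the called genes, covering 10 of the 23, 1 held the box, that of Glipr2. Tpm2 was not among the genes found with the box, and called genes without a window were not searched. A window each of 3 genes is shown because their genes stood wholly above at 24 months and carry the box, the first belonging to a called gene. Each runs 5′ to 3′ on the plus strand with the box in capitals.
Glipr2, chr4:43957452-43957701: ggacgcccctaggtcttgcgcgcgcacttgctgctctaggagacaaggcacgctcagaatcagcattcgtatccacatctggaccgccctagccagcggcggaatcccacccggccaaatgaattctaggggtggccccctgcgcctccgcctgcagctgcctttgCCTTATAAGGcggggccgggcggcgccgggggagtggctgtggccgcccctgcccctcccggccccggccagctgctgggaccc
Cnn2, chr10:79988350-79988599: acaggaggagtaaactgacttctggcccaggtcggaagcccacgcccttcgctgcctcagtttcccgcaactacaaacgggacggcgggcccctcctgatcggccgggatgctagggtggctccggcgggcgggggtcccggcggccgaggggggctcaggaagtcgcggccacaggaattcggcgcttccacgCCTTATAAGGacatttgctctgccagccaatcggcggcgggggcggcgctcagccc
Myl9, chr2:156775214-156775463: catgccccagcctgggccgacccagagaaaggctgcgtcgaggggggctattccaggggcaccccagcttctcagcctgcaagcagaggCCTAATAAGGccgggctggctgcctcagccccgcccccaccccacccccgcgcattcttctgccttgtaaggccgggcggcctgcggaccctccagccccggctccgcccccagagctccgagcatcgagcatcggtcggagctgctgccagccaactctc
The box began 84, 56 and 161 bases before the start in Glipr2, Cnn2 and Myl9. These are RefSeq starts. GENCODE places the start of each of these genes further upstream, so that the window of Glipr2 lies wholly, and those of Cnn2 and Myl9 partly, within the gene as GENCODE gives it.

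Glipr2, a membrane-associated protein of the CAP superfamily found at the Golgi (chr4:43957401-43979118, plus strand), had 37.9, 41.8 and 29.0 TPM in the libraries of 24 months, against 8.79, 10.8 and 11.4 TPM in those of 2 months. It rose by 1.71 ± 0.26 (adjusted p = 0.0355), and every library of 24 months exceeded 28 TPM while none of 2 months reached 12 TPM. Glipr1, a related gene, had 34.7, 51.4 and 30.5 TPM at 24 months and 11.8, 12.2 and 14.0 TPM at 2 months and did not pass (difference 1.51 ± 0.29, adjusted p = 0.0938).

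Of 30 tubulins and tubulin-folding genes, 19 had a positive difference, 8 were wholly above (26.7%) and 2 wholly below (6.67%), and none was called. Tubb5, a widely expressed beta tubulin, had 94.7, 95.1 and 87.0 TPM at 24 months and 56.0, 59.3 and 45.0 TPM at 2 months (difference 0.79 ± 0.16, adjusted p = 0.11), and the alpha tubulins Tuba1a and Tuba1b differed by 0.72 ± 0.21 and 0.75 ± 0.19. Tubb2a, the other abundant beta tubulin, overlapped at 489, 528 and 595 TPM at 24 months and 635, 514 and 529 TPM at 2 months. The median of the list was 0.19, and 0.09 without library 1 of either age. The 58 genes of the primary cilium, the sensory antenna built on microtubules, gave 3 wholly above (5.17%) and 7 wholly below (12.1%), against 11.2% and 8.97% over all genes. Tctn3, of the gate at the base of the cilium, had 4.94, 5.84 and 6.51 TPM at 24 months and 10.1, 10.5 and 15.7 TPM at 2 months, and Ift20, of the transport along it, 536, 449.7 and 546 TPM at 24 months and 452, 504 and 391 TPM at 2 months.

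Small leucine-rich proteoglycans coat collagen fibrils and bind growth factors, and members of this matrix family moved in opposite directions. Aspn, asporin, which binds collagen and TGF-beta (chr13:49544443-49567565, plus strand), had 387, 280.2 and 308 TPM in the libraries of 24 months, against 103, 116 and 134 TPM in those of 2 months. It rose by 1.45 ± 0.22 (adjusted p = 0.0355). Prelp, an anchor between basement membranes and connective tissue (chr1:133910304-133921414, minus strand), had 252, 224 and 264 TPM in the libraries of 24 months, against 463, 438 and 469.7 TPM in those of 2 months. It fell, with a difference of -0.89 ± 0.13 (adjusted p = 0.0355), and its libraries of 24 months all lay under every library of 2 months. Aspn lies inside Cenpp, a centromere gene on the opposite strand, which had 12.8, 12.9 and 20.1 TPM at 24 months and 12.4, 15.7 and 6.58 TPM at 2 months and overlapped. Of the 16 members tested, 4 were wholly above (25.0%) and 5 wholly below (31.2%). Chad, chondroadherin of cartilage, had 647, 863 and 985 TPM at 24 months and 1863, 2087 and 2476 TPM at 2 months (difference -1.38 ± 0.25, adjusted p = 0.0768), and its relative Chadl 82.2, 105 and 168 TPM at 24 months and 216, 234 and 256 TPM at 2 months. Omd, osteomodulin of mineralised tissue, had 57.4, 86.8 and 153 TPM at 24 months and 276, 182 and 286 TPM at 2 months. The most abundant members, Dcn and Fmod, stood at 3335, 2023 and 2808 TPM at 24 months and 2365, 2299 and 2711 TPM at 2 months and at 1575, 1368 and 1613 TPM at 24 months and 1950.4, 1915 and 1921 TPM at 2 months, and of these Fmod was wholly below, with -0.35 ± 0.14. The list held no common direction, with a median of 0.08 that became -0.17 without library 1 of 24 months.

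Elastic fibres consist of elastin on a scaffold of fibrillin microfibrils. Of 22 members tested, 7 were wholly above (31.8%) and 1 wholly below (4.55%), with a median difference of 0.56 and no member called. Mfap5, a microfibril glycoprotein, had 234, 148 and 84.7 TPM in the libraries of 24 months, against 16.1, 46.9 and 61.9 TPM in those of 2 months. Mfap2, its partner on the fibril, had 341, 240.1 and 148 TPM at 24 months and 105, 102 and 107 TPM at 2 months, and fibrillin 1 (Fbn1) 13.5, 14.4 and 12.0 TPM at 24 months and 4.76, 8.27 and 8.29 TPM at 2 months. For Mfap2 and Mfap5 library 1 of 24 months was highest and library 3 lowest. The median of the list was 0.22 without library 1 of 24 months and 0.31 without library 1 of 2 months, and the adjusted p of the 3 genes was 0.181 to 0.231. Efemp2, fibulin 4, was the member wholly below, at 523, 494 and 501 TPM at 24 months and 603, 591 and 658 TPM at 2 months.

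Heparan sulfate proteoglycans, which hold growth factors at the cell surface, leaned the other way, with 7 of 24 members wholly below (29.2%) and 3 wholly above (12.5%). The syndecans lay on both sides. Sdc1 had 112, 104 and 84.8 TPM at 24 months and 54.6, 75.9 and 60.7 TPM at 2 months, wholly above, whereas Sdc3 had 115, 153 and 242 TPM at 24 months and 273, 273 and 301 TPM at 2 months and Sdc4 210.4, 189 and 236 TPM at 24 months and 243, 272 and 321 TPM at 2 months, both wholly below. Adjusted p for these was 0.22 to 0.352. Extl1, which extends the sugar chain, had 17.8, 13.8 and 20.7 TPM at 24 months and 30.0, 26.4 and 28.1 TPM at 2 months. The 3-O-sulfotransferases also went separate ways, Hs3st1 with a difference of 1.20 ± 0.39 and Hs3st3b1 with -1.11 ± 0.36. The basement membrane list had 2 of 20 members wholly above (10%) and 4 wholly below (20%), against 11.2% and 8.97% over all genes. Its median of -0.03 took either sign, from -0.09 to 0.08, when each library was left out. Perlecan (Hspg2) had 10.9, 13.3 and 13.3 TPM at 24 months and 21.05, 18.7 and 19.0 TPM at 2 months, nidogen 2 (Nid2) 17.5, 37.0 and 77.9 TPM at 24 months and 86.3, 86.3 and 83.9 TPM at 2 months and Smoc2 449, 434 and 696 TPM at 24 months and 835, 961 and 917 TPM at 2 months. Col4a1 was wholly above at 19.1, 14.1 and 6.80 TPM at 24 months and 3.42, 4.48 and 4.58 TPM at 2 months.

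Calcium-binding S100 proteins and galectins were among the abundant transcripts. Of 12 S100 genes tested, 4 were wholly above (33.3%), none wholly below, and none was called. S100a11 had 1915, 2516 and 1967 TPM at 24 months and 1378, 1509 and 1317 TPM at 2 months, and S100a6 2143, 2081 and 995 TPM at 24 months and 941, 898 and 917 TPM at 2 months. S100a4 had 751, 659.7 and 273 TPM at 24 months and 254, 239 and 222 TPM at 2 months, with library 3 of 24 months near the level of 2 months, and S100a16 differed by 0.81 ± 0.26. The median of 0.55 was 0.26 without library 1 of 24 months. Galectin 1 (Lgals1), a secreted lectin that binds matrix sugars, had 3241, 2545 and 1389.5 TPM in the libraries of 24 months, against 804, 994 and 649 TPM in those of 2 months (difference 1.49 ± 0.41, adjusted p = 0.168), and the cartilage lectin Clec3a had 762, 1276 and 2761 TPM at 24 months and 3483, 3686 and 4450.2 TPM at 2 months (difference -1.47 ± 0.40, adjusted p = 0.168). Neither passed.

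Keratins and desmosomal genes were few in these cells, with 8 of 68 listed genes tested. Cdsn, corneodesmosin of skin, had 2.42, 1.66 and 2.70 TPM at 24 months and 19.9, 11.2 and 16.3 TPM at 2 months (difference -2.35 ± 0.40, adjusted p = 0.0528), and Krt16, a stress keratin, 4.26, 12.5 and 5.65 TPM at 24 months and 26.2, 26.4 and 24.1 TPM at 2 months (difference -1.77 ± 0.33, adjusted p = 0.0797). Both were wholly below and short of the threshold. Keratinocyte markers summed to 19.3 to 28.3 TPM at 24 months and to 27.9 to 50.02 TPM at 2 months, with Krt5, Krt1 and Ivl listed at 0. Among 10 connexins and pannexins tested, 2 were wholly above (20%) and 1 wholly below (10%), with a median difference of 0.42 and no member called. The member wholly below was Panx3, the pannexin of cartilage, at 135, 326 and 443 TPM at 24 months and 563, 444 and 735 TPM at 2 months. Gja1, the main connexin of bone, overlapped at 264, 279 and 281 TPM at 24 months and 209.7, 281 and 244 TPM at 2 months.

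Protease inhibitors were led by Serping1, the inhibitor of complement C1 and of plasma kallikrein (chr2:84765387-84775444, minus strand), with 159, 148 and 96.3 TPM in the libraries of 24 months, against 40.8, 40.0 and 62.0 TPM in those of 2 months. It rose by 1.48 ± 0.22 (adjusted p = 0.0355). Of 21 serpins and cystatins tested, 6 were wholly above (28.6%) and none wholly below. Serpina3g, a serpin of haematopoietic and activated cells, had 11.6, 14.8 and 8.48 TPM at 24 months and 0.887, 2.78 and 0.403 TPM at 2 months (difference 2.52 ± 0.52, adjusted p = 0.11), and Serpinf1, pigment epithelium-derived factor, 2446, 2111 and 1515 TPM at 24 months and 1306, 1191 and 1313 TPM at 2 months. Cst3, cystatin C, was the most abundant member and overlapped, at 4643, 5564 and 3302 TPM at 24 months and 7706, 5345 and 7957 TPM at 2 months.

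The called genes included 3 intracellular carriers of fatty acids and retinoids, and the other members of their protein family were not counted. Fabp4, the fatty acid carrier of adipocytes and macrophages (chr3:10204088-10208576, minus strand), had 46.5, 55.4 and 64.1 TPM in the libraries of 24 months, against 11.3, 24.7 and 15.9 TPM in those of 2 months. Fabp5, its epidermal relative (chr3:10012548-10016607, plus strand), had 351, 422 and 409.5 TPM in the libraries of 24 months, against 193, 249 and 192 TPM in those of 2 months. Crabp2, which delivers retinoic acid to its nuclear receptor (chr3:87948666-87953376, plus strand), had 112, 98.1 and 45.8 TPM in the libraries of 24 months, against 14.5, 14.6 and 25.2 TPM in those of 2 months. They rose by 1.68 ± 0.26, 0.90 ± 0.15 and 2.12 ± 0.33 (adjusted p = 0.0355, 0.0467 and 0.0355), and for each gene the lowest library of 24 months exceeded the highest of 2 months. The summed adipocyte markers, 47.9 to 66.3 TPM at 24 months and 13.9 to 26.5 TPM at 2 months, consisted mostly of Fabp4, and 7 of the 10 markers, Adipoq, Plin1, Cfd, Cidec, Lep, Retn and Adrb3, were under 1 TPM in all 6 libraries.

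Nuclear receptors, transcription factors of which some respond to such ligands, counted more members below than above. Of 25 nuclear receptors tested, 9 were wholly below at 24 months (36.0%), 4 wholly above (16.0%), and none was called. Rarg, the retinoic acid receptor of cartilage, had 22.0, 24.9 and 24.6 TPM at 24 months and 35.1, 33.0 and 39.5 TPM at 2 months, and its partner Rxra 8.48, 7.17 and 5.53 TPM at 24 months and 12.1, 12.0 and 14.4 TPM at 2 months. Nr4a1, an orphan receptor induced within minutes of a stimulus, had 182, 189.9 and 262 TPM at 24 months and 329, 403 and 442 TPM at 2 months, and Nr4a3 4.17, 7.69 and 17.7 TPM at 24 months and 19.6, 27.1 and 41.0 TPM at 2 months. Adjusted p for these 4 was 0.14 to 0.183. The median of the list, -0.13, ranged from -0.31 to -0.01 when each library was left out in turn.

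Carriers that bring amino acids into the cell counted more members lower than higher. Slc38a4, a sodium-coupled carrier of neutral amino acids of the system A type (chr15:96994820-97055956, minus strand), had 3.54, 8.04 and 8.83 TPM in the libraries of 24 months, against 24.4, 28.2 and 47.1 TPM in those of 2 months. It fell, with a difference of -2.15 ± 0.35 (adjusted p = 0.0414), and no library of 24 months reached 9 TPM while none of 2 months was under 24 TPM. Of 35 amino acid transporters tested, 10 were wholly below (28.6%) and 1 wholly above (2.86%), with a median difference of -0.19 that stayed between -0.28 and -0.16 when each library was left out.

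Slc38a4 was not alone in its family. Slc38a1 had 2.33, 3.61 and 2.85 TPM at 24 months and 6.35, 7.91 and 7.56 TPM at 2 months, and Slc38a3 22.0, 19.3 and 31.2 TPM at 24 months and 67.5, 49.7 and 76.4 TPM at 2 months, both wholly below and both short of the threshold (adjusted p = 0.134 and 0.161). Slc38a2, the stress-inducible member of system A, named after its values were seen, had 67.7, 81.6 and 107 TPM at 24 months and 113, 115 and 144 TPM at 2 months and was wholly below as well (difference -0.55 ± 0.21). The members that sit on the lysosome or elsewhere, Slc38a6, Slc38a7, Slc38a9 and Slc38a10, overlapped, with differences between -0.54 and 0.14. Outside this family, the cationic carrier Slc7a3 had 0.035, 0.147 and 0.963 TPM at 24 months and 1.77, 3.70 and 2.86 TPM at 2 months, Slc43a3 had 48.5, 60.9 and 90.5 TPM at 24 months and 114, 98.3 and 105 TPM at 2 months, and Slc3a2, the heavy chain shared by several exchangers, overlapped at 308, 287 and 271 TPM at 24 months and 297, 375 and 291 TPM at 2 months.

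Sugar carriers showed fewer separations. Of 36 glucose, lactate and nucleotide-sugar carriers, 4 were wholly below (11.1%) and 1 wholly above (2.78%), but 29 of the 36 had a negative difference. The median was -0.25, and -0.14 without library 1 of 24 months. Slc2a1, the basal glucose carrier GLUT1, had 209, 152 and 309 TPM in the libraries of 24 months, against 297, 513 and 449.6 TPM in those of 2 months, which overlapped by a single library of each age. Slc35d1, which brings UDP sugars into the secretory pathway for chondroitin sulfate, had 35.1, 50.3 and 78.5 TPM at 24 months and 84.2, 88.6 and 94.8 TPM at 2 months, and Slc5a3, the inositol carrier, 4.90, 4.84 and 5.04 TPM at 24 months and 6.77, 10.6 and 9.30 TPM at 2 months. The carrier wholly above was Slc35b1, which moves ATP into the endoplasmic reticulum, at 144, 187 and 137 TPM at 24 months and 96.2, 114 and 94.7 TPM at 2 months. Adjusted p for these 4 was 0.181 to 0.255.

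Potassium channels set the resting potential of chondrocytes. Of 25 genes tested, 8 were wholly below (32.0%) and 3 wholly above (12.0%), with a median of -0.44 that was -0.27 without library 1 of 2 months and -0.28 without library 2 of 24 months. Kcnk5, a two-pore-domain channel and one of the most abundant members, had 18.5, 26.6 and 43.3 TPM at 24 months and 51.7, 65.5 and 75.1 TPM at 2 months. Kcnma1, the large-conductance calcium-activated channel, had 31.9, 54.7 and 57.2 TPM at 24 months and 67.0, 67.6 and 76.2 TPM at 2 months, and Kcnq5 1.53, 2.01 and 1.19 TPM at 24 months and 7.73, 3.76 and 6.49 TPM at 2 months. In the other direction, Kcnj15 had 2.51, 3.69 and 3.79 TPM at 24 months and 0.838, 0.384 and 0.928 TPM at 2 months. None passed, at adjusted p of 0.15 to 0.288. Of 11 water channels and carbonic anhydrases tested, 5 were wholly above (45.5%) and 2 wholly below (18.2%), and the median of -0.18 was 0.31 without library 1 of 24 months. Aqp1 had 57.0, 39.8 and 18.3 TPM at 24 months and 8.59, 13.9 and 15.0 TPM at 2 months, Aqp2 46.9, 15.1 and 10.8 TPM at 24 months and 7.08, 8.09 and 4.16 TPM at 2 months and Aqp5 17.4, 4.85 and 6.80 TPM at 24 months and 2.72, 2.35 and 2.49 TPM at 2 months, all wholly above, as were Car11 and Car13, whereas the hypoxia-inducible Car9 had 13.0, 4.995 and 23.0 TPM at 24 months and 25.2, 30.0 and 25.2 TPM at 2 months and Car8 13.5, 35.6 and 55.4 TPM at 24 months and 76.5, 60.2 and 81.6 TPM at 2 months, both wholly below. In library 1 of 24 months all 3 aquaporins were at their highest, and Car8 was at its lowest. Aqp1 is also a red cell and endothelial gene, and the erythroid markers were highest in that library; their part in its level was not tested.

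**Figure D3:**
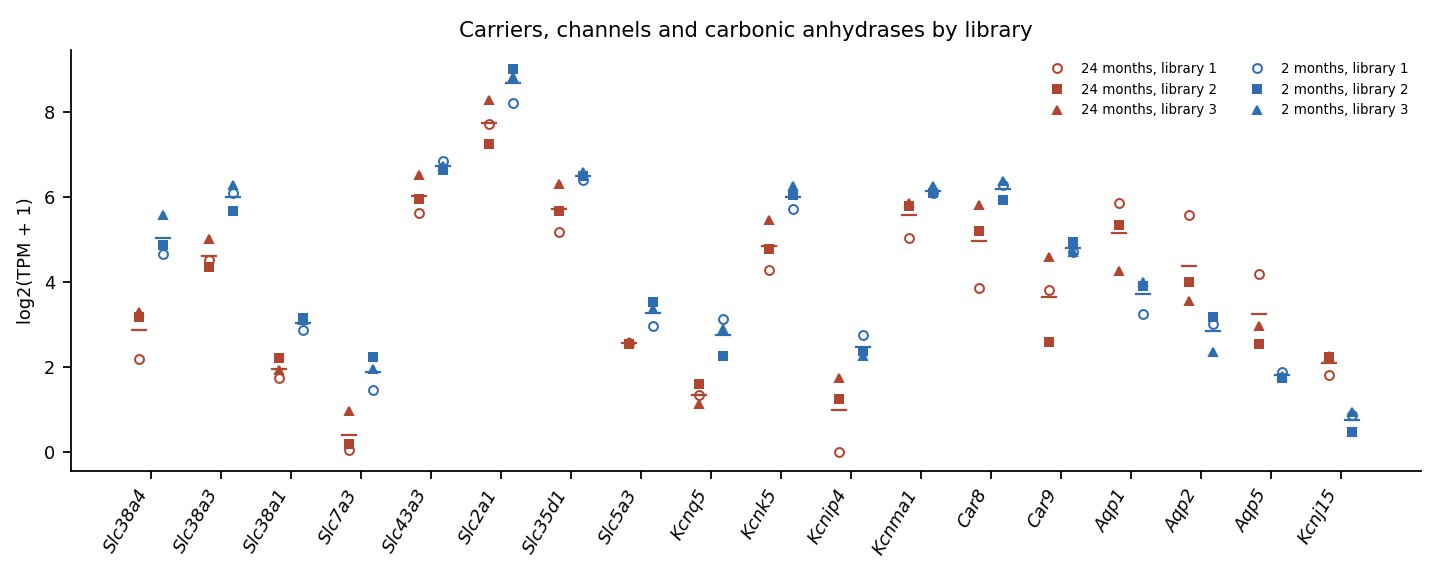
Level of 18 carriers, channels and carbonic anhydrases as log2(TPM + 1) per library, with 24 months in red to the left of 2 months in blue and a bar at each mean of 3 libraries. The genes shown were chosen after their values were seen. Slc38a4 is the only called gene among them, at 3.54 to 8.83 TPM at 24 months and 24.4 to 47.1 TPM at 2 months, Slc2a1 overlaps by 1 library of each age, and the 3 aquaporins and Kcnj15 lie higher at 24 months.

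Among lists with at least 20 members tested, mitochondrial ribosomal proteins had the highest share wholly above. All 78 listed genes were tested, and 34 were wholly above at 24 months (43.6%), none wholly below, with 69 positive differences and no member called. The median difference was 0.32, between 0.24 and 0.33 when each library was left out in turn, and 44 members were wholly above when library 1 of 24 months was left out, where 2397 of all 14501 genes were (16.5%). Mrps11 had 60.8, 60.5 and 30.3 TPM at 24 months and 25.0, 21.04 and 26.4 TPM at 2 months, Mrps24 224, 194 and 149 TPM at 24 months and 131, 126 and 114 TPM at 2 months and Mrpl36 92.3, 91.8 and 80.0 TPM at 24 months and 68.5, 59.7 and 62.3 TPM at 2 months. The most abundant member, Mrpl33, stood at 597, 587 and 474 TPM at 24 months and 397, 466 and 412 TPM at 2 months. These are differences of modest size, the adjusted p of the 4 genes being 0.189 to 0.28.

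The core spliceosome, the machine that removes introns, had 24 of 69 members wholly above (34.8%), 3 wholly below (4.35%), no member called and a median of 0.24 (0.19 to 0.26 with each library left out). Lsm4, of the ring around U6 RNA, had 555, 317 and 288 TPM at 24 months and 197, 229 and 173 TPM at 2 months, and the Sm proteins Snrpd1 and Snrpd3 differed by 0.45 ± 0.15 and 0.52 ± 0.17. The SR and hnRNP proteins that choose splice sites had 2 of 53 wholly above (3.77%) and 6 wholly below (11.3%), with a median of -0.07. This depended on library 1 of 24 months. Without it, 14 of the 53 were wholly above and 9 wholly below, with a median of 0.01. Over all genes 16.5% were then wholly above and 11.7% wholly below, and of the 69 core spliceosome genes 29 were above and 4 below. A member on the lower side was called. Qk, the STAR-family RNA-binding protein quaking, which steers splicing and circular RNA formation (chr17:10202601-10319854, minus strand), had 20.9, 28.5 and 18.9 TPM in the libraries of 24 months, against 87.0, 64.1 and 72.5 TPM in those of 2 months. It fell, with a difference of -1.68 ± 0.23 (adjusted p = 0.0307), and the highest library of 24 months was below 29 TPM while the lowest of 2 months was above 64 TPM. At 12 months its level was close to that of 2 months, with a 12 minus 2 month difference of -0.02 ± 0.23 and a 24 minus 12 month difference of -1.65 ± 0.23, the comparisons sharing libraries. Mbnl1, muscleblind, overlapped at 133, 180.2 and 259 TPM at 24 months and 235, 287 and 268 TPM at 2 months, and Hnrnpa3 was wholly above at 37.5, 43.0 and 46.3 TPM at 24 months and 27.8, 29.4 and 31.8 TPM at 2 months.

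The differences varied with transcript length, which differs between these families: the median longest transcript was 1866.5 bases for the mitochondrial ribosomal proteins, 3010 bases for the core spliceosome and 3927 bases for the amino acid transporters. The genes were split into 5 bins of equal size by their longest transcript. Those in the shortest bin (51 to 1308 bases) had a median difference of 0.10, and 15.1% of them were wholly above and 5.68% wholly below. In the longest bin (4832 bases or more) the median was -0.13, and 5.99% were wholly above and 12.2% wholly below. The slope was steepest in library 1 of 24 months, from 0.08 in the shortest to -0.27 in the longest bin relative to the mean of 2 months. Libraries of 2 months differed as well, with library 1 going from 0.02 to -0.08 and library 3 from -0.02 to 0.09. With each library's trend on length and GC content removed, the median of the mitochondrial ribosomal proteins was 0.24 and that of the core spliceosome 0.22, and that of the amino acid transporters was -0.16.

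**Figure D4:**
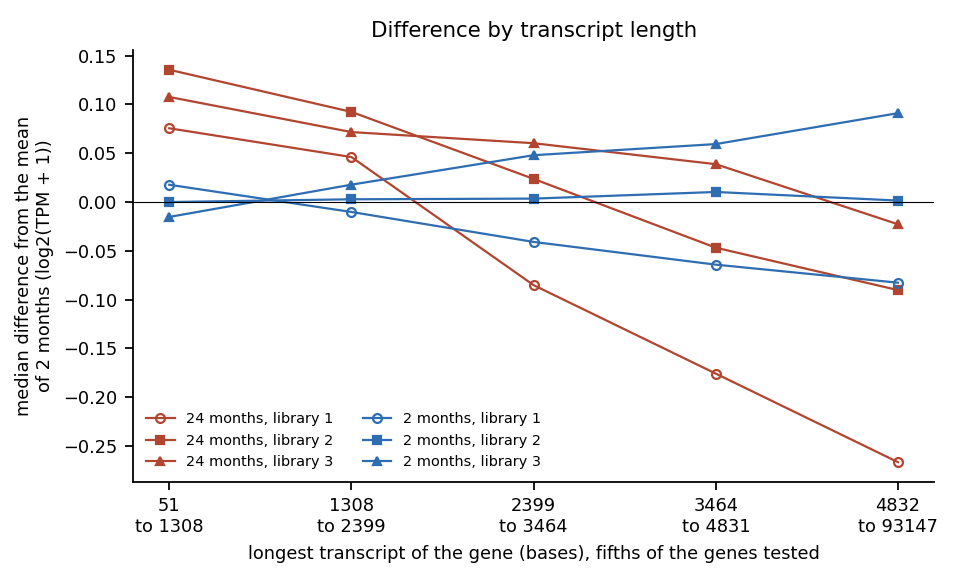
Median difference of each library from the mean of the 2 month libraries, in log2(TPM + 1), over 5 bins of the genes tested by the length of their longest annotated transcript in bases, with 24 months in red and 2 months in blue. The 3 libraries of 24 months slope downward, and library 1 of 24 months most, from 0.08 to -0.27. Library 1 of 2 months also slopes downward, from 0.02 to -0.08, and library 3 of 2 months upward, from -0.02 to 0.09.

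Small nucleolar RNAs guide chemical marks on ribosomal RNA and are cut from introns of host genes. Of 132 listed, 46 were tested and 1 was called. Snord91a, a C/D box snoRNA of 93 bases inside the host gene Tsr1, had 0, 1.08 and 1.14 TPM in the libraries of 24 months, against 6.95, 5.47 and 5.86 TPM in those of 2 months. It fell, with a difference of -2.10 ± 0.35 (adjusted p = 0.0467), and was listed at 0 in all 3 libraries of 12 months. Its sequence is shown because it is the shortest named gene called, with the D box in capitals near the 3′ end, read from the GENCODE M21 transcript on the plus strand of GRCm38.p6.
Snord91a, chr11:74905424-74905516: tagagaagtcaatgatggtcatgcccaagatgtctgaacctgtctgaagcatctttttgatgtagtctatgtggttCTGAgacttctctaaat
Tsr1 lies on the same strand and had 11.6, 19.1 and 33.3 TPM at 24 months and 23.0, 27.8 and 29.2 TPM at 2 months, overlapping between ages. No source used here states how reads were divided between a snoRNA this short and its host, so the level is uncertain. Of the microRNA precursors, 93 of 1163 listed were tested, 3 were wholly above (3.23%) and 5 wholly below (5.38%), and none was called.

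Protein turnover contributed 4 called genes. Psmb8, a catalytic subunit of the immunoproteasome (chr17:34197721-34201454, plus strand), had 15.7, 32.6 and 14.4 TPM in the libraries of 24 months, against 1.96, 3.23 and 1.99 TPM in those of 2 months and rose by 2.62 ± 0.41 (adjusted p = 0.0355). The gene model Gm20496 overlaps it on the opposite strand, as Gm15851 does Prelp. Ctsh, a lysosomal aminopeptidase (chr9:90054152-90076089, plus strand), had 453, 406 and 406 TPM in the libraries of 24 months, against 261, 215 and 251 TPM in those of 2 months and rose by 0.80 ± 0.13 (adjusted p = 0.0467). Ctsw, a cathepsin best known from cytotoxic lymphocytes (chr19:5465043-5468507, minus strand), had 18.4, 18.2 and 23.3 TPM in the libraries of 24 months, against 55.4, 54.5 and 80.0 TPM in those of 2 months. It fell, with -1.60 ± 0.22 (adjusted p = 0.0307). The T and NK cell markers Cd3e, Cd3g, Cd4, Cd2, Gzma and Klrd1 were listed at 0 in all 6 libraries, and Cd3d, Cd8a, Il7r and Gzmb were under 1 TPM. Trac had 7.77, 12.7 and 7.16 TPM at 24 months and 8.29, 19.8 and 12.1 TPM at 2 months, Lck reached 2.30 TPM in library 1 and Nkg7 1.01 TPM in library 2 of 24 months. Ctsw made up most of the summed T and NK cell level, 28.6 to 32.0 TPM at 24 months and 63.7 to 92.4 TPM at 2 months. Ctsw overlaps Fibp on the opposite strand, and Fibp had 67.9, 62.4 and 60.6 TPM at 24 months and 68.5, 55.3 and 58.3 TPM at 2 months, which overlapped.

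Otud7b, which removes ubiquitin chains from signalling proteins of the NF-kappaB pathway (chr3:96104527-96161129, plus strand), had 5.95, 8.47 and 9.87 TPM in the libraries of 24 months, against 20.6, 23.6 and 21.5 TPM in those of 2 months. It fell, with -1.35 ± 0.23 (adjusted p = 0.0474). Of the deubiquitinases tested, 7 of 72 were wholly above (9.72%) and 7 wholly below (9.72%), near the background on both sides. Among ubiquitin ligase and conjugating genes, 14 of 101 were wholly above (13.9%) and 11 wholly below (10.9%). Ube2l6, the conjugating enzyme of the interferon-induced modifier ISG15, had 10.1, 13.7 and 7.40 TPM at 24 months and 2.05, 2.72 and 3.51 TPM at 2 months (adjusted p = 0.104), and Ube2c, which acts at mitotic exit, 115, 91.2 and 90.5 TPM at 24 months and 49.2, 56.5 and 29.3 TPM at 2 months (adjusted p = 0.168).

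Cell death genes included several wholly above. Of 46 BCL2 family, caspase and necroptosis genes, 11 were wholly above (23.9%) and 4 wholly below (8.70%), and none was called. Bok, a pro-apoptotic BCL2 relative, had 83.7, 71.5 and 39.3 TPM at 24 months and 20.2, 24.3 and 21.4 TPM at 2 months (difference 1.46 ± 0.28, adjusted p = 0.0938). Mlkl, the executioner of necroptosis, had 9.24, 6.46 and 6.26 TPM at 24 months and 1.56, 2.01 and 2.82 TPM at 2 months, and its kinase Ripk3 28.7, 43.9 and 43.0 TPM at 24 months and 23.7, 23.6 and 18.7 TPM at 2 months. The inflammatory caspases Casp1 and Casp4 had 1.65, 6.77 and 4.06 TPM at 24 months and 0.260, 1.04 and 0.449 TPM at 2 months and 12.9, 10.3 and 5.78 TPM at 24 months and 2.53, 3.58 and 1.09 TPM at 2 months. Library order differed between these genes, with Casp1 highest in library 2 and Casp4 in library 1 of 24 months. In the list of Toll-like receptors and inflammasomes, 3 of 28 were wholly above (10.7%), near the background, and none wholly below, Il18 among the higher at 23.9, 14.7 and 18.5 TPM at 24 months and 11.3, 8.48 and 9.30 TPM at 2 months.

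Genes of the cell cycle brake and of DNA synthesis both had members on the higher side. Cdkn2b, an inhibitor of the kinases that open the cell cycle (chr4:89306299-89311039, minus strand), had 53.9, 51.5 and 34.8 TPM in the libraries of 24 months, against 21.2, 14.5 and 14.7 TPM in those of 2 months and rose by 1.42 ± 0.22 (adjusted p = 0.0355). Of 48 genes of serine, one-carbon and nucleotide synthesis, 12 were wholly above (25.0%) and 1 wholly below (2.08%), yet the median was 0.05. Tyms and Tk1, which make thymidine nucleotides, had 106, 83.8 and 76.2 TPM at 24 months and 55.1, 55.6 and 37.7 TPM at 2 months and 66.8, 45.1 and 36.5 TPM at 24 months and 22.7, 27.0 and 18.5 TPM at 2 months. Of 88 DNA repair genes, 12 were wholly above (13.6%) and 4 wholly below (4.55%), and Lig1, the ligase of the lagging strand, had 18.9, 12.6 and 9.45 TPM at 24 months and 4.07, 6.60 and 4.78 TPM at 2 months. Prc1, which bundles the spindle midzone, and Ran, the GTPase of nuclear transport and spindle assembly, differed by 0.91 ± 0.17 and 0.71 ± 0.14 (adjusted p = 0.0797 and 0.0957) and did not pass.

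Among regulators, Klf2, a transcription factor that responds to fluid flow and statins (chr8:72319033-72321656, plus strand), had 353, 493 and 439 TPM in the libraries of 24 months, against 1128, 753 and 924 TPM in those of 2 months. It fell, with -1.12 ± 0.18 (adjusted p = 0.0424). Egln1, the prolyl hydroxylase that marks HIF proteins for destruction in oxygen (chr8:124908587-124949324, minus strand), had 24.5, 27.3 and 24.4 TPM in the libraries of 24 months, against 69.3, 73.9 and 58.6 TPM in those of 2 months and fell, with -1.37 ± 0.19 (adjusted p = 0.0307). Egln1 was at 167, 104 and 115 TPM at 12 months, so that its 12 minus 2 month difference was positive, 0.90 ± 0.19, and its 24 minus 12 month difference -2.27 ± 0.19, both sharing libraries with the comparison described here. In the Hippo pathway, 2 of 27 were wholly above (7.41%) and 3 wholly below (11.1%), against 11.2% and 8.97% over all genes. The median of that list was -0.03, and no member was called. Its cofactor Wwtr1 (TAZ) had 52.5, 62.6 and 85.4 TPM at 24 months and 94.0, 101 and 97.9 TPM at 2 months. The TEAD partner Vgll3 had 8.07, 7.12 and 5.65 TPM at 24 months and 1.36, 0.205 and 2.31 TPM at 2 months (adjusted p = 0.102). The insulin and mTOR list, with 3 of 46 wholly above (6.52%) and 6 wholly below (13.0%), held Irs2, an insulin receptor substrate, at 16.8, 23.7 and 19.9 TPM at 24 months and 27.8, 36.1 and 37.7 TPM at 2 months, and Foxo1 at 4.81, 7.65 and 5.01 TPM at 24 months and 9.78, 9.82 and 10.9 TPM at 2 months.

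Vasoactive peptides and their signalling leaned lower, with 7 of 27 wholly below (25.9%) and 3 wholly above (11.1%). The cyclic GMP kinase Prkg2, which acts downstream of C-type natriuretic peptide in growth plate cartilage, had 57.8, 92.4 and 129.5 TPM at 24 months and 147, 159 and 187 TPM at 2 months, and Prkg1 14.9, 14.4 and 17.4 TPM at 24 months and 22.9, 22.5 and 32.8 TPM at 2 months. The endothelin receptor Ednra and the guanylate cyclase subunit Gucy1a1, both also pericyte genes, were wholly above at 3.64, 3.71 and 1.82 TPM at 24 months and 0.192, 0.378 and 1.44 TPM at 2 months and 7.39, 3.71 and 1.46 TPM at 24 months and 0.066, 0.943 and 0.968 TPM at 2 months. Adjusted p for these 4 was 0.203 to 0.257, and the smooth muscle and pericyte markers were also higher in sum at 24 months; their part in these values was not tested. Among guidance and neurotrophic factors, 2 of 20 lay wholly above (10%) and 2 wholly below (10%), near the 11.2% and 8.97% over all genes. Their median was -0.22, with 13 negative differences and no member called. The member with the largest rise, Ptn, pleiotrophin, had 149, 122 and 101 TPM at 24 months and 27.8, 58.9 and 39.7 TPM at 2 months (difference 1.58 ± 0.47, adjusted p = 0.195).

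The secretory route carried no called gene. Of 55 genes of COPI and COPII vesicles and the Golgi, 8 were wholly below (14.5%) and 3 wholly above (5.45%), and 14 had a positive difference. Sec24c and Sec24a, cargo receptors of COPII, had 16.6, 18.7 and 23.5 TPM at 24 months and 30.5, 29.1 and 34.1 TPM at 2 months and 8.89, 10.4 and 13.3 TPM at 24 months and 14.9, 17.4 and 20.0 TPM at 2 months, and Creb3l2, the factor that raises COPII genes in chondrocytes, 18.7, 19.7 and 33.1 TPM at 24 months and 33.7, 50.6 and 44.8 TPM at 2 months. The median of -0.18 was -0.07 without library 1 of 24 months. Lysosomal hydrolases and membrane proteins had 9 of 47 wholly below (19.1%) and 5 wholly above (10.6%). The lysosomal peptidase Tpp1 had 33.0, 42.6 and 49.8 TPM at 24 months and 64.8, 53.9 and 59.0 TPM at 2 months, wholly below, whereas the membrane protein Cd63 was wholly above at 4344, 3408 and 2385 TPM at 24 months and 2361, 2093 and 2110.2 TPM at 2 months. The 293 tested Zfp zinc finger genes, 18 wholly above (6.14%) and 21 wholly below (7.17%), were under the background on both sides.

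**Figure D5:**
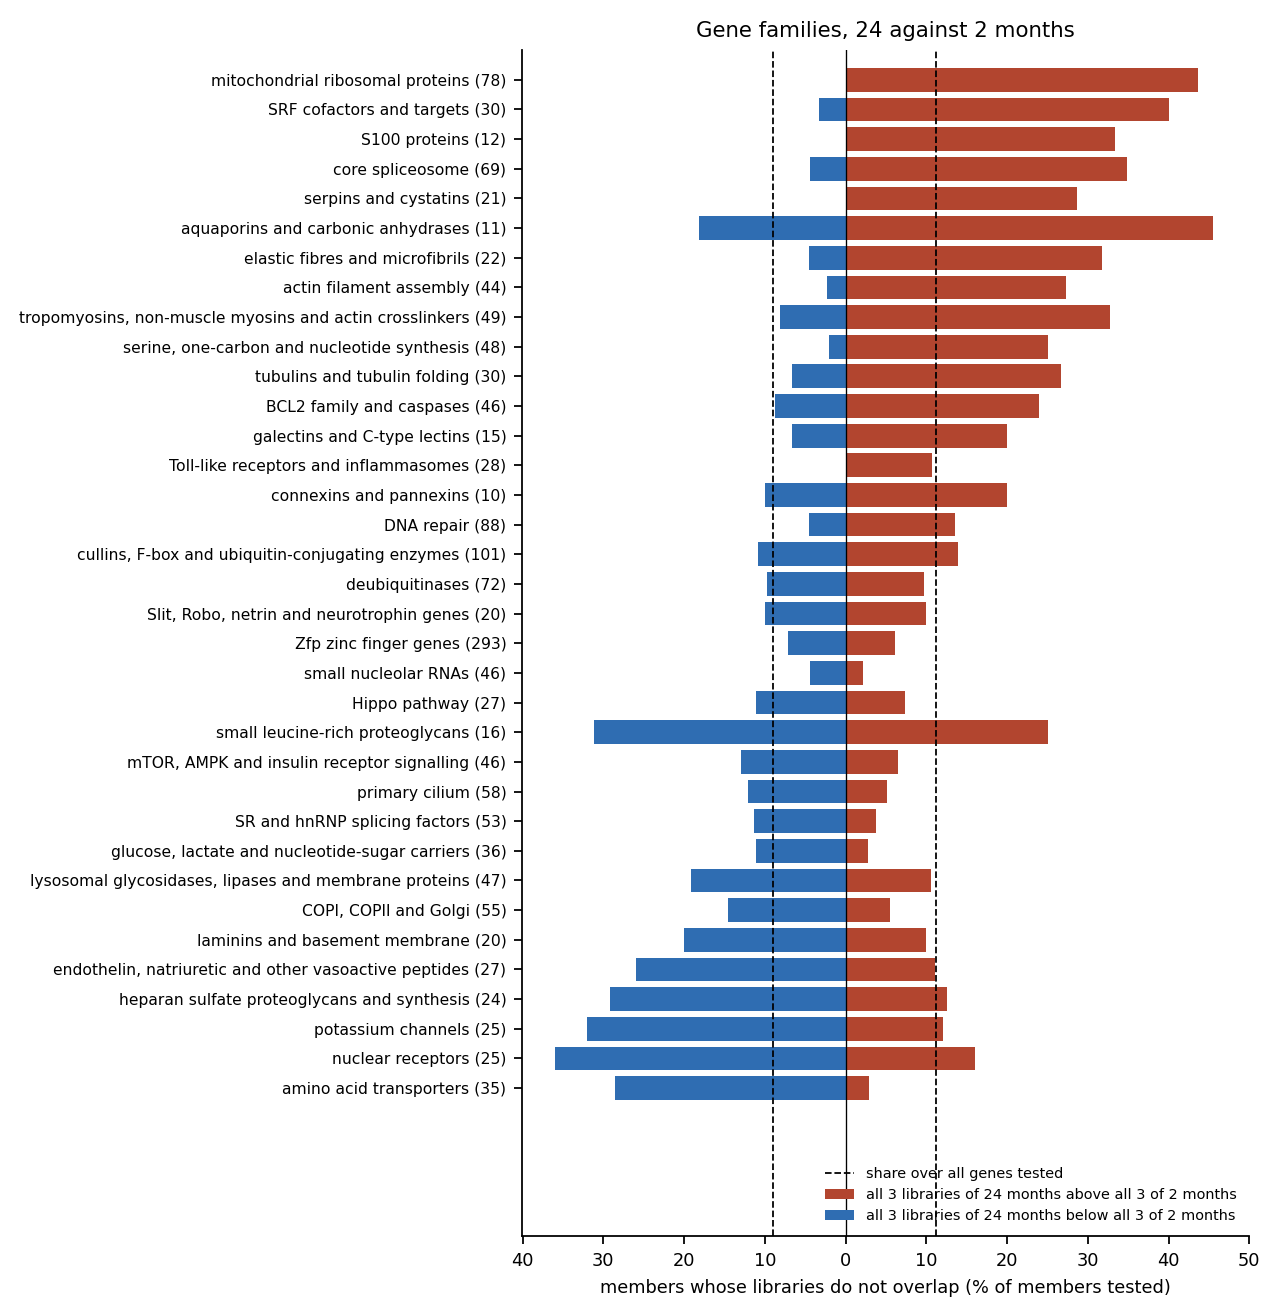
Share of tested members, in percent, whose 3 libraries of 24 months all lay above (red, to the right) or all below (blue, to the left) the 3 libraries of 2 months, for the 35 families with at least 10 members tested, number of members in brackets, ordered by the share above minus the share below. Dashed lines mark the shares over all 14501 genes, 11.2% above and 8.97% below. Mitochondrial ribosomal proteins stand at the top with 43.6% above, and amino acid transporters at the bottom with 28.6% below.

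These calls rested on few libraries. All 19 named genes kept the sign of their difference in each of the 20 other fits, but the number called was not stable. The sign was bound to stay in the fits that changed only the filter, the intensity trend, the tested threshold or the 12 month libraries. Those fits leave the estimate between 24 and 2 months as it is. The 19 genes were also chosen by their difference in these same data, so the kept sign is a description. Leaving out libraries 1, 2 and 3 of 24 months in turn gave 1, 5 and 430 called genes. Doing the same at 2 months gave 2, 3 and 1, and at 12 months, whose libraries only feed the error, 50, 29 and 3. None of the 19 was called without library 1 of 24 months, where their adjusted p was 0.134 to 0.185, and all 19 were called without library 3 of 24 months.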

How the data were processed

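RNA was sequenced from sorted skeletal stem cells, per the labels' protocols as paired ends of 76 bases from a kit for very low RNA input. The authors deposited log2(TPM + 1) values per gene symbol and library. They used Salmon and the build GRCm38.p6, per the submitters' processing notes, while no source used here states the Salmon version, annotation or strand. Values were analysed as deposited. Genes were kept at 1 TPM or more in 3 or more of 9 libraries. One linear model with 3 ages was fitted with limma 3.58.1 in R 4.3.3 (eBayes, trend on mean level, 6 residual degrees of freedom), two-sided, with a call at a Benjamini-Hochberg adjusted p under 0.05. The pipeline was tested on simulated data.

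The gene lists (98) and the members named were chosen with earlier results of these data known. Named were all called genes, the next 10 per direction, up to 5 members of smallest p and the 2 most abundant per described list, and marker genes. Other genes named are marked where they appear, and a few that the rule takes in are not reported here. Column headers hold no replicate number, so libraries 1 to 3 follow file order. Coordinates and lengths came from GENCODE M21 (GRCm38), where a symbol was found for 98.9% of rows. Rows with a date in place of a symbol (26) were tested and not named.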

Additional observations from a re-analysis of the deposited data

How the results depend on the processing

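The 23 calls between 24 and 2 months depended on the model. The count was 5 with an offset of 0.1 TPM, 3 without the intensity trend, 43 with only the 6 libraries of 24 and 2 months, 295 with array quality weights and 1 when limma's treat tested against a log2 difference of 0.5. Without a filter on low values it was 0 (limma, 2745 genes at an unadjusted p under 0.05). With 1 library left out at a time it ranged from 1 to 430. Array weights gave library 1 of 24 months 0.357 and library 2 of 24 months 2.18. The count was 20 to 25 with an offset of 5 TPM, a 5 TPM filter, quantile or median-of-ratios scaling, or the length and GC trend removed, the last chosen after seeing the data. The cause of these changes was not tested. All 19 named calls kept their sign in all 20 of these fits. Over 200 named genes no difference that had been called changed sign, 199 values lost and 169 gained a call. Of the medians of 36 lists, 562 values moved by less than the spread between libraries and 50 by more. Part of the 562 could not move at all. The median is the same by construction without a filter, without the intensity trend, with treat and with only the 6 libraries. No paired analysis was possible because the columns carry no replicate number. TPM keeps no depth, so how far depth limits low genes is unknown.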

Other observations

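Lists not described above had the following shares of members whose libraries did not overlap between 24 and 2 months, against 11.2% above and 8.97% below over all genes. Of 61 genes of mitochondrial dynamics, import and quality control, 15 were wholly above at 24 months (24.6%) and 3 wholly below (4.92%). Among 69 genes of the nucleolus and ribosome assembly, 8 were wholly above (11.6%, near the share over all genes) and 0 wholly below. Tetraspanins, caveolae and ESCRT genes gave 12 of 54 wholly above (22.2%) and 2 wholly below (3.70%). Of 52 genes of mRNA decay, 5 were wholly above (9.62%) and 13 wholly below (25.0%), and of 40 phosphate, sulfate and anion carriers 2 were wholly above (5.0%) and 7 wholly below (17.5%). No gene of these 5 lists was called by limma.

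The Y-linked genes Ddx3y, Uty, Eif2s3y and Kdm5d were detected in all 9 libraries, and Xist was under 1 TPM in all 6 libraries of 24 and 2 months. No sex-linked gene was called.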
